A study of Rattus norvegicus with 62 samples.

Results

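The genes described are those of the interferon response and of antigen presentation in rat liver. The set names 34 genes, and a gene was taken as measured where a probe set carried its symbol alone; of several such probe sets the one with the highest mean was used. This gave 32 of 34 members out of 14218 genes with a single symbol on the array. Ifi47 and Gbp5 were not analysed here. The 32 comprised 6 regulators and feedback genes, 11 antiviral effectors, 3 chemokines of the CXCR3 receptor, 9 genes of proteasomal processing and peptide loading for major histocompatibility complex (MHC) class I, 2 class II genes and the GTPase Gbp2.

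Livers came from 31 male rats of the outbred Crj:CD(SD)IGS strain, each sampled at 2 times: the tissue removed at partial hepatectomy (5w) and the liver at euthanasia (10w). Rats first received an initiator or its vehicle methylcellulose (MC) over 1 or 2 weeks; after a 2-week pause they drank water with or without 500 ppm phenobarbital (PB), a liver tumour promoter. The labels do not say which initiator was given for which length. The 7 treatments were MC/water and MC/PB (4 rats each), diethylnitrosamine at 3 mg/kg (DEN3/PB, 5 rats) or 30 mg/kg (DEN30/PB, 4 rats), thioacetamide at 45 mg/kg (TAA/PB, 5 rats), methapyrilene at 100 mg/kg (MP/PB, 5 rats) and acetaminophen at 1000 mg/kg (APAP/PB, 4 rats). PB had been given for 1 week at 5w and for 6 weeks at 10w; every initiated group drank PB, so no initiator was measured without it. Hepatectomy was also done in MC/water, so its change between the times carries age and regrowth of the liver without PB, and these cannot be told apart. The change of the PB effect, MC/PB minus MC/water, from 5w to 10w was compared as well. It joins the longer PB intake with any effect of PB that depends on age or regrowth. These cannot be told apart either. The readout was the MAS5 signal, a linear intensity of RNA abundance from 1 Affymetrix array per sample.

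Type I interferons act through a receptor whose signal reaches the interferon-stimulated response element and so raise Mx, OAS and ISG genes; type II interferon acts through gamma-activated sites and raises GTPases, CXCR3 chemokines and antigen presentation genes. Immunoproteasome subunits and the TAP transporter supply peptides to class I molecules, which every nucleated cell carries with B2m, whereas class II with its chaperone Cd74 belongs mainly to professional antigen-presenting cells. Liver holds hepatocytes together with Kupffer cells, sinusoidal endothelium and resident lymphocytes, all of which can respond to interferons.

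The tissue label matched its markers: 8 of 9 hepatocyte genes were measured and all 8 reached a signal of 100 on 62 of 62 arrays, with a median of 54954 for Alb. Of 11 measured T cell genes 6 reached 100 on at least 4 arrays, with medians from 6.7 for Cd8b to 254 for Lck. Of 12 measured natural killer cell genes 9 did, with medians from 10.4 for Klrc1 to 502.5 for Ccl5, and the Kupffer cell gene Clec4f had a median of 4208. In bulk liver, fewer cells of a type and less RNA per cell cannot be told apart. With the members left out, the first component of the within-group deviations held 11.8% of the variation and split the arrays into sets of 30 and 32. These array sets crossed the groups, with 2 to 3 arrays of every group in each, and all 31 animals had both samples in the same set; results were therefore also taken within sets.

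Few members differed between groups. Called below means a Benjamini-Hochberg adjusted p under 0.05 in limma over all genes tested (10489 at 5w, 10539 at 10w and 10904 between times); differences are given as log2 with the standard error. Under PB alone, MC/PB minus MC/water, 1 of 32 members was called higher at 5w, against 1.25% of all genes called in either direction, and 1 of 32 at 10w, against 2.26%; both calls were the chemokine Cxcl9. A single call among 32 members is close to these shares, so the results below are about Cxcl9 and not the set. The median member difference was 0.09 at 5w and 0.23 at 10w, beside -0.0032 and -0.0096 over all genes.

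Against MC/PB, none of the 5 initiated groups had a member called at either time. At 5w the shares of all genes called were 0.0381% for DEN3, 0.114% for DEN30, 0.0191% for TAA, 0.0572% for MP and 0% for APAP, and at 10w they were 0.019%, 0.0285%, 0.00949%, 0.0854% and 0.0664%. Members at an unadjusted limma p under 0.05 numbered 3, 0, 1, 2, 0 of 32 at 5w in that order. At 10w they numbered 0, 0, 7, 3, 1 of 32. In the same order all genes gave 5.21%, 5.82%, 5.63%, 8.10% and 7.21% at 5w. At 10w all genes gave 4.55%, 5.18%, 4.59%, 7.7% and 6.07%. All 5 contrasts of a time share the MC/PB animals, and the PB contrast shares them too. For the 6 effects, the change of the effect from 5w to 10w called no member and 0% of genes; 0 to 1 of 32 members had an unadjusted limma p under 0.05, and 1.98% to 4.5% of all genes. With the animal, sampled at both times, as a block, these changes again called no member, and 0.0642% of genes for PB, 0.00917% each for TAA, MP and APAP and 0% each for DEN3 and DEN30; 0 to 4 of 32 members had an unadjusted limma p under 0.05, and 4.62% to 8.89% of all genes.

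**Figure D1:**
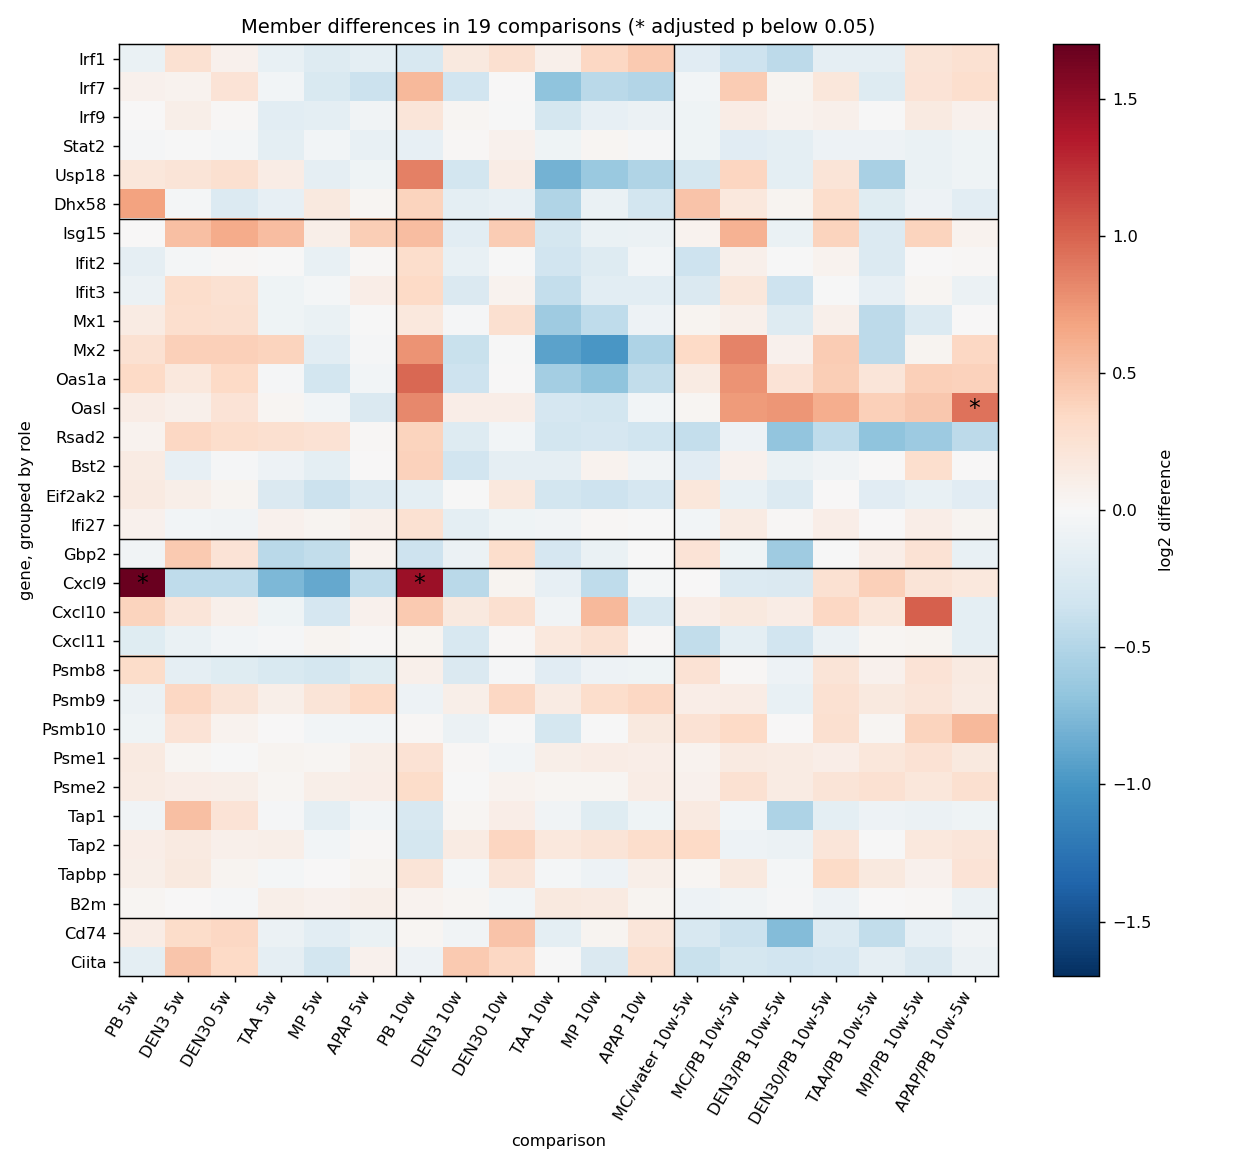
Heat map of the log2 difference of each of the 32 members (rows, grouped by role) in 19 comparisons (columns: phenobarbital and 5 initiators at each time, then 10w minus 5w in each treatment). Stars mark adjusted p under 0.05: Cxcl9 under phenobarbital at both times and Oasl between times in APAP/PB.

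Cxcl9, Cxcl10 and Cxcl11 encode ligands of CXCR3, the receptor of activated T and natural killer cells. Cxcl9 was 3.20-fold higher with PB at 5w and 2.74-fold higher at 10w, whereas Cxcl10 and Cxcl11 did not pass the test. At 5w the Cxcl9 signal was 973, 580.3, 958 and 346 in the 4 MC/water rats and 4070.3, 2139, 1861 and 1364 in the 4 MC/PB rats. At 10w it was 839.8, 484, 824 and 564 in MC/water and 3652, 2077, 1079.8 and 1429 in MC/PB. The groups did not overlap at either time, and replicate 1 of MC/PB was the highest of its group both times. The differences were 1.68 ± 0.28 (limma adjusted p = 0.000682) and 1.45 ± 0.28 (adjusted p = 0.00241). Of all genes, 6.44% had groups that did not overlap at 5w and 9.14% at 10w, and of the members 2 and 4: Cxcl9 and Psme1 at 5w, with Dhx58 and Psme2 in addition at 10w.

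Within array set 1 the Cxcl9 difference was 1.49 at 5w and 1.23 at 10w, and within set 2 it was 1.87 and 1.67; each rests on 2 rats a group, and the call was kept in set 2 and lost in set 1. It was also lost at 5w when only MC/water and MC/PB entered the fit. A second Cxcl9 probe set, which correlated with the first at r = 0.98 over the 62 arrays, gave 1.50 at 5w and 1.59 at 10w.

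The initiated rats, which also drank PB, had Cxcl9 signals at 5w of 1582, 1779.8, 1440.5, 1338 and 1909 in DEN3/PB and 1089, 1818, 1692 and 1932 in DEN30/PB. They were 1238, 1307, 1558, 984 and 1295 in TAA/PB, 1349, 1045, 753, 1239 and 1686 in MP/PB and 1659, 1154, 2028 and 1684 in APAP/PB. Of the 27 PB-drinking rats 26 lay above the highest MC/water rat, and MP/PB replicate 3, at 753, was the exception. Against MC/PB the 5w differences were -0.44 ± 0.27 for DEN3, -0.44 ± 0.28 for DEN30, -0.77 ± 0.27 for TAA, -0.87 ± 0.27 for MP and -0.43 ± 0.28 for APAP, with adjusted p from 0.335 upward; the 5 share the MC/PB group with its rat at 4070.

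At 10w Cxcl9 was 1456, 1276, 1388, 940.1 and 1758 in DEN3/PB, 1169, 2565, 2468 and 1809 in DEN30/PB and 1118, 2006, 2227, 1343 and 2004 in TAA/PB. It was 1201, 1196, 1522, 1609 and 1374 in MP/PB and 1466, 1845, 2061 and 1944 in APAP/PB. All 27 PB-drinking rats then lay above the 4 MC/water rats, the lowest at 940.1 against the highest water rat at 839.8. These counts mix PB with the initiators and are a description.

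**Figure D2:**
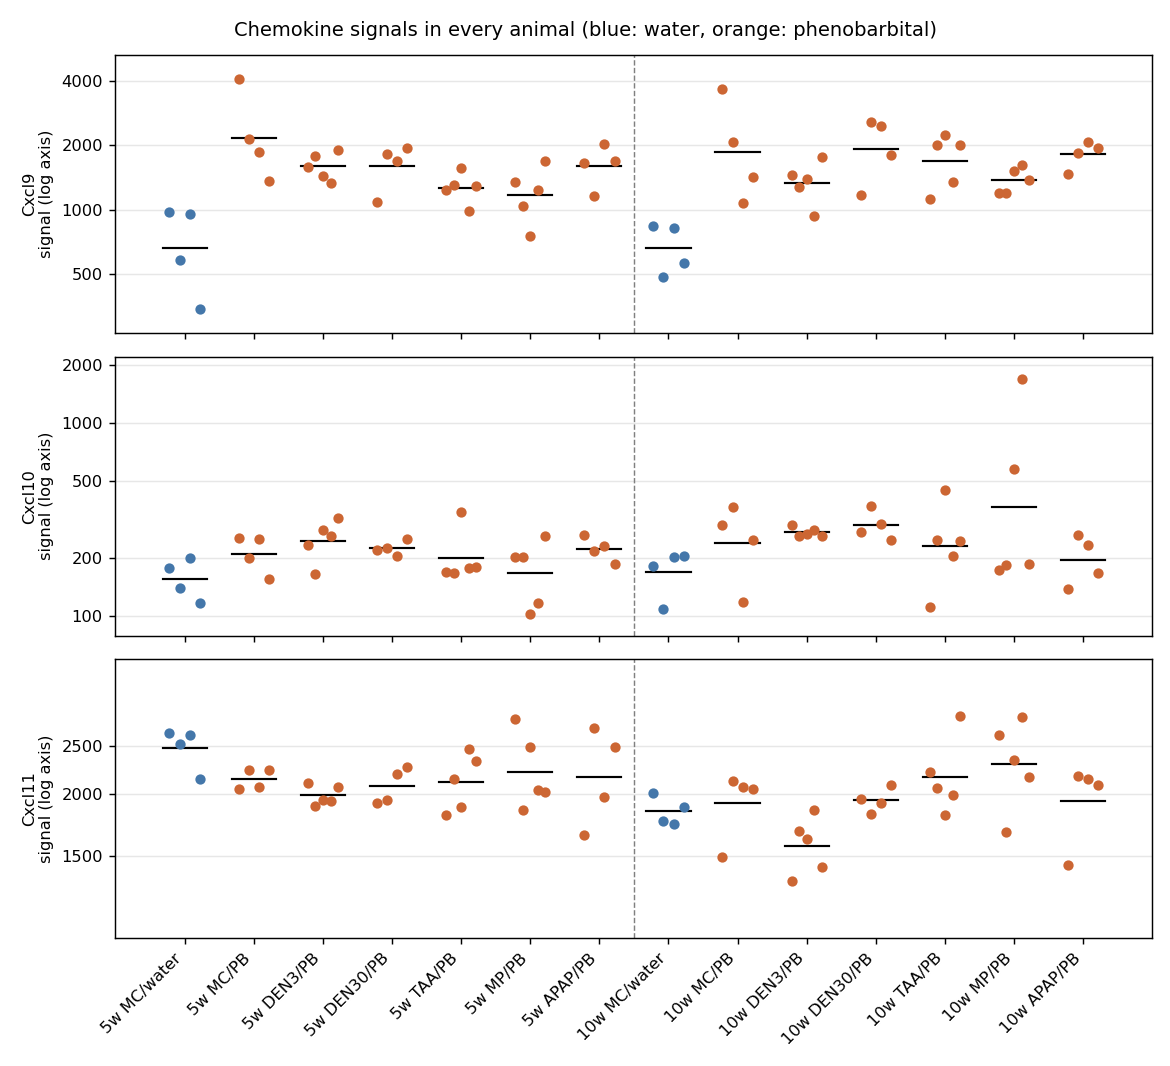
Signal of Cxcl9, Cxcl10 and Cxcl11 (log axes) in every animal of the 14 groups; each point is 1 rat, bars are group means of log2 values, blue is MC/water and orange every group that drank phenobarbital. At 10w all 27 orange Cxcl9 points lie above the 4 blue ones, while Cxcl10 and Cxcl11 overlap.

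Cxcl10 had a median signal of 223 over the 62 arrays. At 5w it was 178, 139.6, 201 and 116 in MC/water and 254, 199, 249.6 and 155 in MC/PB, a difference of 0.38 ± 0.23 with a 95% interval of -0.09 to 0.85. At 10w it was 182, 109, 202 and 205 and 297, 368, 119 and 246, with an interval of -0.47 to 1.36. The groups overlapped at both times. The other 5w signals were 233, 165, 278, 259.9 and 320.4 in DEN3/PB, 221, 225, 204 and 249 in DEN30/PB, 168, 166, 344, 176 and 179.7 in TAA/PB, 202, 202, 103, 117 and 259 in MP/PB and 262, 217, 231 and 186 in APAP/PB. At 10w they were 296, 261, 266, 279 and 260.3 in DEN3/PB, 271, 371, 299.6 and 249 in DEN30/PB, 112, 246, 450.4, 204 and 245 in TAA/PB and 138, 264, 234 and 167 in APAP/PB. The widest spread was in MP/PB at 10w, at 173, 185, 579.5, 1687 and 185, where replicate 4 had the highest Cxcl10 of the series.

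Cxcl11 ranged from 1333 to 2866 over all arrays. It differed from MC/water by -0.21 ± 0.13 at 5w and 0.05 ± 0.15 at 10w under PB, neither called. The Cxcl9 difference under PB was thus not accompanied by a called difference in either neighbour; the difference between the 3 genes was not tested.

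Markers of the lymphocytes that bear CXCR3 were measured in part. Of 11 T cell genes, Cd2, Cd8b and Cd28 reached a signal of 100 on no array, Cd3g did on 33, Cd4 on 48 and Lck on 62 of 62. Of 12 natural killer cell genes, Ncr1, Klrc1 and Eomes did on none, Klrk1 on 50, Gzma and Gzmk on 56 each and Ccl5 on 62. The summed signal of the 11 measured T cell genes was 815 to 1099 in MC/water and 823 to 962 in MC/PB at 5w, and 759 to 954 and 612 to 972 at 10w. For 12 natural killer cell genes the sums were 1480.5 to 1699 and 1179 to 1473 at 5w and 1434 to 2028 and 1016 to 1774 at 10w. The T cell sums overlapped, while the natural killer cell sums at 5w were lower in every MC/PB rat. Kupffer cell sums over 11 genes were 19426 to 26988 against 18682 to 23586 at 5w. At 5w the list medians were -0.10, -0.24 and -0.17, and at 10w -0.11, -0.33 and -0.22. None of the 5, 8 and 11 tested genes of these lists was called by limma under PB, and 0, 1 and 0 of them had an unadjusted p under 0.05 at 5w and 0, 1 and 1 at 10w; those of smallest p at 5w were Cd4 (-0.30 ± 0.24) and Lck (-0.08 ± 0.15), Gzma (-0.60 ± 0.20) and Prf1 (-0.75 ± 0.40), and Clec4f (-0.32 ± 0.17) and Mrc1 (-0.24 ± 0.14). At 10w they were Lck (-0.36 ± 0.22) and Cd3g (0.45 ± 0.31), Gzma (-0.62 ± 0.29) and Gzmb (-0.59 ± 0.30), and C1qb (-0.54 ± 0.22) and C1qa (-0.47 ± 0.24). In the biliary list Epcam was called higher at both times (0.80 ± 0.15 and 1.26 ± 0.24), and in the hepatocyte list Hnf4a was called lower at 5w (-0.56 ± 0.12). The part of these cells in the Cxcl9 difference was not tested.

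The 3 chemokine genes lie within a short stretch of chromosome 14, and their promoters are shown because, of these neighbours, Cxcl9 was called under PB. RefSeq promoters of GRCr8 run from 250 bases before to 50 after the annotated start, 5′ to 3′ on the gene's strand. Capitals mark matches to GAAANNGAA, the core of the interferon-stimulated response element, or TTCNNNGAA, the gamma-activated site, both searched on both strands. The stretches are chr14:16006916-16007215 (plus strand) for Cxcl9, chr14:15988816-15989115 (plus strand) for Cxcl10 and chr14:15973478-15973777 (plus strand) for Cxcl11.
Cxcl9: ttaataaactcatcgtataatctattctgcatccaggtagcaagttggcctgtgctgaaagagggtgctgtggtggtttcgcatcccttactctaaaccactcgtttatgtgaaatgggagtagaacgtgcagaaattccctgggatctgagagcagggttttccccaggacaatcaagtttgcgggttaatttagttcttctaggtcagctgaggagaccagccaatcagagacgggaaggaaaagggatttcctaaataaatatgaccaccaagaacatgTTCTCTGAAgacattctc
Cxcl10: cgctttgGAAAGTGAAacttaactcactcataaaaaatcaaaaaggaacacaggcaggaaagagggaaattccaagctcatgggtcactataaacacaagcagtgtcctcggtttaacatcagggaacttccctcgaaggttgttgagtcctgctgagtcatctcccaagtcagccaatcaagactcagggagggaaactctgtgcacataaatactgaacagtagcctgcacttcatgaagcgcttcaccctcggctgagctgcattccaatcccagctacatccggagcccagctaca
Cxcl11: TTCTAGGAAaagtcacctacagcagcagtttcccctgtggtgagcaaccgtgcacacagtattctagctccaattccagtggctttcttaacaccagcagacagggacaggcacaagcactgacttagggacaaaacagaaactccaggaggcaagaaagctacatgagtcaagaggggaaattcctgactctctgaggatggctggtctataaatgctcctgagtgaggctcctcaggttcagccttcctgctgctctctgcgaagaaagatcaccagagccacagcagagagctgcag
Counting the start base as 1, Cxcl9 held no response element core and 1 gamma-activated site beginning at 33, Cxcl10 held 1 core beginning at -243, and Cxcl11 held 1 gamma-activated site at -250. Of 33469 promoters of this length, 9.71% held the core and 8.87% the gamma-activated site. A match describes letters in this window and not binding.

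Most regulators and antiviral effectors had positive differences with PB at 10w, and none passed the test. At 10w 10 of 11 effectors and 4 of 6 regulators were above 0 under PB, with medians of 0.38 and 0.29. Of all genes, 47.96% were above 0 in this comparison. Effectors deviated together within groups (median r of 0.44 over their pairs), so their signs are not separate observations. No effector or regulator was called by limma at 10w. An unadjusted limma p under 0.05 was found for 3 effectors and 0 regulators, beside 14.03% of all genes. At 5w the medians were 0.13 and 0.04, again with none called. There 0 effectors and 1 regulator had an unadjusted limma p under 0.05, beside 10.8% of all genes. After Cxcl9, the members of smallest p were Dhx58 (0.68 ± 0.24, limma adjusted p = 0.208) and Psme1 (0.16 ± 0.08, 0.487) at 5w, and Oasl (0.81 ± 0.26, 0.0895) and Psme2 (0.32 ± 0.11, 0.142) at 10w. Dhx58 is a RIG-I-like receptor without a signalling domain, and Psme1 and Psme2 are the PA28 activator subunits of the proteasome. Further Dhx58 probe sets gave PB differences of 0.52 ± 0.27 and 0.28 ± 0.44 at 5w. At 10w they gave 0.23 ± 0.24 and 0.03 ± 0.27. A further Psme1 probe set, with a mean signal of 99.8, gave -0.28 ± 0.28 at 5w and 0.25 ± 0.28 at 10w. It correlated with the Psme1 probe set used at r = -0.13.

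Oasl, an oligoadenylate synthetase-like antiviral protein, was 470.1, 278, 318 and 421 in MC/water and 390.0, 324, 428 and 474 in MC/PB at 5w. At 10w it was 482, 323, 384 and 327 and 892, 679, 445 and 775, and only replicate 3 of MC/PB lay within the MC/water range. Of 8 fits with a rat left out, Oasl was called under PB at 10w only in the 1 without that rat. Over all 20 alternative settings it was called in 2, with limma adjusted p from 0.0236 to 0.759. In the other groups the 5w signals were 502, 325, 560.3, 443 and 346 in DEN3/PB, 463, 668, 386 and 416 in DEN30/PB, 359.7, 518, 497, 359 and 347 in TAA/PB, 290.4, 443, 263, 425 and 586 in MP/PB and 532, 309, 348 and 218 in APAP/PB. At 10w they were 1070.3, 605, 892, 697 and 521 in DEN3/PB, 830.3, 859.6, 637 and 641 in DEN30/PB, 341, 562, 949.9, 534 and 507 in TAA/PB, 363, 866, 431, 563 and 595 in MP/PB and 835, 589.8, 709 and 532 in APAP/PB. Of the 27 PB-drinking rats 8 exceeded the highest MC/water rat at 5w and 23 at 10w.

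Oas1a, the synthetase that activates RNase L against viral RNA, had the widest range of group means after Cxcl9 (1.11 log2) and a within-group SD of 0.63. It was 767, 216, 372 and 439.9 in MC/water and 866, 329, 577 and 453 in MC/PB at 5w, and 555, 278, 605 and 436 and 1349, 546, 740.2 and 1245 at 10w, so both pairs of groups overlapped. The 5w initiated groups had 729, 375, 681, 602 and 655 in DEN3/PB, 726, 662, 630.3 and 673 in DEN30/PB, 315, 388, 784, 881 and 426 in TAA/PB, 550.3, 537, 242, 306 and 569 in MP/PB and 939, 377, 635 and 286 in APAP/PB. The 10w values were 960.4, 368, 880.5, 753 and 731 in DEN3/PB, 1032, 1214, 699 and 782 in DEN30/PB, 414, 344, 1641, 559 and 590.0 in TAA/PB, 367, 1416, 391, 372 and 705 in MP/PB and 1152, 387, 1358 and 328 in APAP/PB. Single rats stood high in TAA/PB (replicate 3) and MP/PB (replicate 2) at 10w. The 95% interval of the PB difference was -0.39 to 1.07 at 5w and 0.05 to 1.90 at 10w.

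Mx2, a dynamin-like GTPase that blocks virus replication, was 746, 336, 381 and 535 in MC/water and 726, 298, 740.4 and 663 in MC/PB at 5w and 644, 551, 555 and 704 and 1305, 609.7, 830.0 and 1839 at 10w. MC/PB at 10w had the highest group mean of the series and 3 of its 4 rats were above every MC/water rat. The 5w initiated groups gave 885, 641, 765, 781 and 767 in DEN3/PB, 725, 829, 807 and 708 in DEN30/PB, 556, 772, 708, 1379.9 and 575 in TAA/PB, 334, 496, 474, 519 and 773 in MP/PB and 854, 498, 875 and 266 in APAP/PB. The 10w values were 1177, 565, 915, 630.2 and 877 in DEN3/PB, 831, 1321, 1086 and 1000.3 in DEN30/PB, 335, 403, 1253, 600.2 and 475 in TAA/PB, 388, 1166, 391, 402 and 509 in MP/PB and 877, 644, 1561 and 305 in APAP/PB. At 10w the differences from MC/PB were -0.91 ± 0.37 for TAA and -0.99 ± 0.37 for MP, with adjusted p of 0.999 and 0.498.

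Isg15, a ubiquitin-like modifier, was 826, 343, 646 and 295 in MC/water and 822, 178, 489 and 743 in MC/PB at 5w, and 556, 486, 562 and 437 and 827, 574, 480.0 and 1314 at 10w. Replicate 2 of MC/PB at 5w was the lowest of the series. The 5w initiated groups had 998, 499, 728, 732 and 640.3 in DEN3/PB, 811, 918, 620.0 and 751 in DEN30/PB, 684, 532, 857, 1115 and 503 in TAA/PB, 500.1, 407, 491, 552 and 693 in MP/PB and 764, 572, 823 and 518 in APAP/PB. The 10w values were 654, 425, 917, 774 and 582 in DEN3/PB, 924, 1202, 842 and 1089.9 in DEN30/PB, 542, 340.2, 1264, 532 and 598 in TAA/PB, 606, 1522, 579.5, 364 and 755 in MP/PB and 935, 367, 1779 and 358 in APAP/PB. DEN30/PB at 10w had the highest group mean, and its groups overlapped with MC/PB at both times (0.63 ± 0.33 and 0.43 ± 0.41).

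The initiators are compared with MC/PB, in log2 differences of the 3 members of smallest limma p, none of which was called. At 5w these were Tap1 (0.51 ± 0.16, adjusted p = 0.496), Ciita (0.47 ± 0.18, 0.807) and Psmb9 (0.35 ± 0.16, 0.904) for DEN3. For DEN30 they were Isg15 (0.63 ± 0.33, adjusted p = 0.899), Ciita (0.34 ± 0.19, 0.936) and Cxcl9 (-0.44 ± 0.28, 0.949). Irf1 and Ciita are regulators of class I and class II genes, and Tap1 is a subunit of the peptide transporter. For TAA they were Cxcl9 (-0.77 ± 0.27, adjusted p = 0.709), Gbp2 (-0.46 ± 0.27, 0.93) and Isg15 (0.52 ± 0.31, 0.934), and for MP Cxcl9 (-0.87 ± 0.27, adjusted p = 0.335), Eif2ak2 (-0.37 ± 0.18, 0.614) and Ciita (-0.31 ± 0.18, 0.717). For APAP they were Psmb9 (0.33 ± 0.17, adjusted p = 0.715), Cxcl9 (-0.43 ± 0.28, 0.821) and Irf7 (-0.37 ± 0.26, 0.824). The median of the 32 members was 0.16 for DEN3, 0.08 for DEN30, -0.03 for TAA, -0.12 for MP and 0.01 for APAP, where the median of all genes lay between -0.002 and 0.012.

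At 10w the members of smallest p for DEN3 were Cxcl11 (-0.28 ± 0.14), Ciita (0.44 ± 0.24) and Cxcl9 (-0.46 ± 0.26). For DEN30 they were Psmb9 (0.36 ± 0.18, adjusted p = 0.979), Irf1 (0.27 ± 0.16, 0.99) and Cd74 (0.48 ± 0.29, 0.99). For TAA they were Dhx58 (-0.52 ± 0.19, adjusted p = 0.999), Mx2 (-0.91 ± 0.37, 0.999) and Mx1 (-0.61 ± 0.28, 0.999). All 11 of 11 effectors were below 0 in TAA/PB and 9 of 11 in MP/PB, with medians of -0.31 and -0.29. Of all genes, 51.0% were above 0 for TAA and 50.7% for MP. Effectors deviated together (median r of 0.44 over their pairs), and both contrasts share the MC/PB rats. The signs of the effectors are therefore not separate observations. For MP the members of smallest p were Mx2 (-0.99 ± 0.37, adjusted p = 0.498), Eif2ak2 (-0.36 ± 0.15, 0.539) and Irf1 (0.36 ± 0.15, 0.567), and for APAP Irf1 (0.45 ± 0.16, adjusted p = 0.59), Psmb9 (0.35 ± 0.18, 0.833) and Eif2ak2 (-0.29 ± 0.15, 0.839). Eif2ak2, the RNA-dependent kinase PKR, was lower in all 5 MP/PB rats than in the 4 MC/PB rats, as 1 of 32 members without overlap beside 2.53% of all genes. Member medians at 10w were -0.08, 0.06, -0.18, -0.11 and -0.04 in the same order of initiators. The number of rats limits what these comparisons could show: the 95% interval of the Usp18 difference in TAA/PB at 10w was -1.71 to 0.11.

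Between 5w and 10w, 1 member in 1 of 7 treatments was called without regard to the animal. This was Oasl in APAP/PB, 0.92 ± 0.25 (limma adjusted p = 0.0437), where all 4 rats were higher at 10w without overlap. The groups nearly touched, with the highest 5w signal at 531.6 and the lowest 10w signal at 532.3. In APAP/PB 2 of 32 members and 6.13% of all genes did not overlap between the times. The Oasl call was lost without any 1 of the 4 APAP/PB rats, with differences of 0.83 to 1.02 and limma adjusted p of 0.077 to 0.231. Shares of all genes called were 0.0459% in MC/water, 1.31% in MC/PB, 2.89% in DEN3/PB, 0% in DEN30/PB, 1.77% in TAA/PB, 1.34% in MP/PB and 1.47% in APAP/PB. With the animal as a block, which uses that each rat was sampled at both times, 17 calls were made on members: 1 in MC/water, 1 in MC/PB, 5 in DEN3/PB, 0 in DEN30/PB, 3 in TAA/PB, 4 in MP/PB and 3 in APAP/PB. The shares of all genes called with this block were 1.42%, 4.84%, 8.8%, 1.46%, 6.01%, 4.92% and 6.34% in the same order, so nothing particular to the set is read from these counts.

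With the animal as a block, Oasl rose in MC/PB (0.72 ± 0.20, adjusted p = 0.0214), DEN3/PB (0.75 ± 0.18, 0.00361) and APAP/PB (0.92 ± 0.20, 0.00201). In the other PB groups it differed by 0.61 ± 0.20 in DEN30/PB, 0.40 ± 0.18 in TAA/PB and 0.46 ± 0.18 in MP/PB, and in MC/water by 0.04 ± 0.20. Rat by rat, 26 of 27 PB-drinking rats had a higher Oasl signal at 10w, and 3 of 4 MC/water rats, with a median change of 0.65 and 0.12. Whether the change differed with PB was tested as the change of the PB effect, which did not pass with the block (0.69 ± 0.28, adjusted p = 0.43, 95% interval 0.13 to 1.25 before adjustment) or without it (SE 0.36, adjusted p = 1). With each rat left out in turn, chosen after seeing the data, Oasl remained called with the block in all 5 fits of DEN3/PB and all 4 of APAP/PB, and in MC/PB only without replicate 3.

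Rsad2, the antiviral radical SAM enzyme viperin, fell with the block in DEN3/PB (-0.67 ± 0.17, adjusted p = 0.00886), TAA/PB (-0.68 ± 0.17, 0.00995) and MP/PB (-0.62 ± 0.17, 0.0234). It was lower at 10w in 23 of 27 PB-drinking rats and in 4 of 4 MC/water rats, a course opposite in sign to that of Oasl. In MP/PB its signal was 358, 412, 359, 360.3 and 391 at 5w and 299, 258, 170.3, 223 and 243 at 10w without overlap, as 1 of 32 members beside 2.32% of all genes. With each rat left out in turn it remained called in all 5 fits of DEN3/PB, was lost in TAA/PB without replicate 2 or 4, and in MP/PB was kept only without replicate 1. Cxcl11 fell in MC/water (-0.42 ± 0.11, 0.0453) and DEN3/PB (-0.33 ± 0.10, 0.0307), in both without overlap of the groups, which held for 4.27% and 5.24% of all genes. The call in MC/water was lost without any 1 of its rats and that in DEN3/PB without replicate 1, 3 or 5. Cxcl10 rose in MP/PB (1.02 ± 0.30, 0.0316), a group with the rat at 1687; without this rat, replicate 4, the difference was 0.37 (adjusted p = 0.476), and without replicate 3 it was 0.71 (0.26).

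The PA28 subunits were called higher in 3 treatments with the animal as a block. Psme1 passed in TAA/PB (0.20 ± 0.06, adjusted p = 0.0356) and MP/PB (0.24 ± 0.06, 0.00877), and Psme2 in TAA/PB (0.26 ± 0.07, 0.0204) and APAP/PB (0.27 ± 0.08, 0.0349). Each was higher at 10w in 26 of 27 PB-drinking rats and in 2 of 4 MC/water rats. The change of the PB effect between times called neither gene, with or without the block. No dependence of their rise on PB is therefore read from these counts. Psmb10, an inducible catalytic subunit of the immunoproteasome, rose in MP/PB (0.38 ± 0.11, 0.0373) and APAP/PB (0.55 ± 0.13, 0.00461). Its 10w signals in APAP/PB were 1052, 1096, 1419.9 and 1438 after 807, 819, 1086 and 688 at 5w. With a rat left out, Psme1 in TAA/PB was kept only without replicate 1, and so was Psme2; Psme1 in MP/PB was lost without replicate 2 and Psme2 in APAP/PB kept only without replicate 2. Psmb10 in APAP/PB was lost without replicate 4, and in MP/PB without replicate 2, 3 or 5.

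With the animal as a block, in DEN3/PB Tap1 (-0.52 ± 0.13, adjusted p = 0.0058) and the class II chaperone Cd74 (-0.74 ± 0.20, 0.013) fell; replicate 1 of that group, at 1500.1 for Tap1 and 8800.5 for Cd74, was the highest rat of the series for both. Without this rat the differences were -0.39 (adjusted p = 0.0557) for Tap1 and -0.68 (0.0534) for Cd74, so neither call was kept; the Cd74 call was also lost without replicates 2 or 5. Of the further class II list, RT1-Da (-0.85 ± 0.22) and RT1-Db1 (-0.73 ± 0.19), chains of a classical class II molecule, were called lower in the same fit, as was Cxcr3 (-0.55 ± 0.14), the chemokine receptor. Lower calls were also made there on Clec9a (-0.93 ± 0.25) of the dendritic cell list, Jchain (-0.70 ± 0.18) of the plasma cell list and Ccl5 (-0.44 ± 0.13) of the natural killer cell list. The part of these cells in the lower Cd74 signal was not tested. Of all genes, 8.8% were called in DEN3/PB with this block, so nothing particular to these lists is read from these calls. Clec9a had a median signal of 66.7, below the signal minimum of the filter.

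Without the block, the 3 members of smallest p between times were as follows, in log2 differences. In MC/water they were Cxcl11 (-0.42 ± 0.14, adjusted p = 0.306), Dhx58 (0.48 ± 0.22, 0.709) and Ifit2 (-0.36 ± 0.18, 0.754), and in MC/PB Oasl (0.72 ± 0.25, adjusted p = 0.177), Psme2 (0.26 ± 0.10, 0.246) and Mx2 (0.85 ± 0.37, 0.332). In DEN3/PB they were Oasl (0.75 ± 0.23, adjusted p = 0.0565), Rsad2 (-0.67 ± 0.21, 0.0685) and Tap1 (-0.52 ± 0.17, 0.0698). In DEN30/PB, where no member was called with or without the block, they were Tapbp (0.33 ± 0.13, adjusted p = 0.439), Oasl (0.61 ± 0.25, 0.484) and Psme2 (0.21 ± 0.10, 0.576); 3 of 32 members and 8.02% of genes had an unadjusted limma p under 0.05 there. In TAA/PB they were Rsad2 (-0.68 ± 0.21, adjusted p = 0.0774), Psme2 (0.26 ± 0.09, 0.135) and Psme1 (0.20 ± 0.07, 0.184), in MP/PB Psme1 (0.24 ± 0.07, adjusted p = 0.0809), Cxcl10 (1.02 ± 0.33, 0.119) and Rsad2 (-0.62 ± 0.21, 0.146) and in APAP/PB Oasl (0.92 ± 0.25, adjusted p = 0.0437), Psmb10 (0.55 ± 0.16, 0.0571) and Psme2 (0.27 ± 0.10, 0.181). Oasl was among them in 4 of 7 treatments and Psme2 in 4 of 7. Of the changes in effect between times, those of smallest p were Oasl (0.69 ± 0.36) for PB, Tap1 (-0.47 ± 0.25) for DEN3, Cxcl9 (0.49 ± 0.41) for DEN30, Mx2 (-1.29 ± 0.49) for TAA and Irf1 for MP (0.57 ± 0.27) and APAP (0.62 ± 0.28), none of them called with or without the animal block.

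The endothelial receptor Kdr also fell between times, called without the block in 5 of the 6 PB groups, with a difference of -0.42 ± 0.09 in MC/PB, and the summed signal of 5 endothelial genes was 9303 to 10891 at 5w and 6900.4 to 8283 at 10w in that group. In MC/water the sums were 10127 to 10657 and 7747 to 9080.3. Their part in the member changes was not tested.

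**Figure D3:**
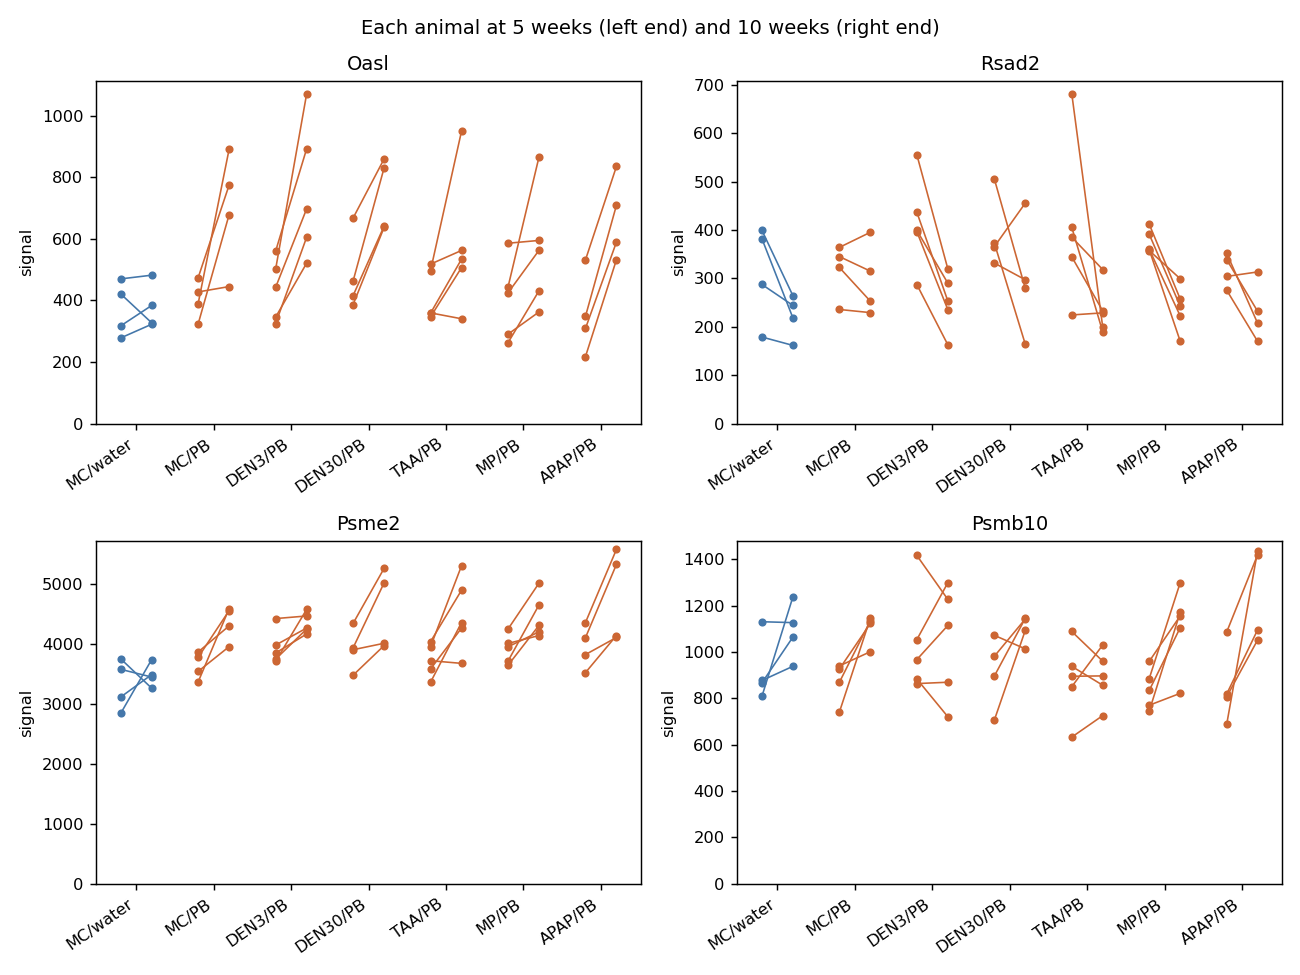
Signal (linear axes from 0) of Oasl, Rsad2, Psme2 and Psmb10 in each of 31 rats; a line joins the 5w sample (left end) and the 10w sample (right end) of 1 rat, blue for MC/water and orange for phenobarbital. Oasl and Psme2 lines rise in 26 of 27 orange rats, and Rsad2 lines fall in most rats of both colours.

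Rats of one group differed little in several class I genes. B2m, the light chain of class I molecules, lay between 35758 and 58516 with a within-group SD of 0.13 log2, and its group means spanned 0.23. These values are of the B2m probe set used, with which a second one correlated at r = -0.14. Psme1 and Psme2 had within-group SDs of 0.11 and 0.14, but their group means spanned 0.43 and 0.52. At 10w all 4 MC/PB rats exceeded all 4 MC/water rats for both: Psme2 was 3448, 3489, 3262 and 3741 in MC/water and 4302, 4558, 3956 and 4590.4 in MC/PB, and Psme1 8615, 9145, 8485 and 9093 and 10354, 9956, 10380.5 and 11074. Neither passed over all genes, and the 95% intervals were 0.09 to 0.54 and 0.06 to 0.42 log2. Of the 27 PB-drinking rats 26 lay above the highest MC/water rat for Psme1 at 10w and 26 for Psme2.

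No member of the class I genes was called without the animal block, and 17 of their 171 tests over 19 comparisons (9.94%) had an unadjusted limma p under 0.05, beside 8.60% of the tests on all genes. Psmb8 and Psmb9, the other inducible catalytic subunits, ranged from 1964 to 4759 and from 2328 to 5871, and their PB differences were 0.32 ± 0.20 and -0.10 ± 0.17 at 5w and 0.09 ± 0.20 and -0.09 ± 0.18 at 10w. Tapbp, which bridges TAP and class I molecules, ranged from 574 to 1119.7, Tap1 from 385 to 1500.1 and Tap2 from 153 to 535. Of the class II genes, Cd74 ranged from 1522 to 8800.5, and Ciita, the class II transactivator, had a median of 133 and reached 100 on 48 of 62 arrays. Gbp2, an interferon-gamma-induced GTPase, differed under PB by -0.06 ± 0.28 at 5w and -0.35 ± 0.29 at 10w and was highest in DEN3/PB at 5w.

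Among the regulators, the transcription factors Irf1, Irf9 and Stat2 spanned 0.61, 0.33 and 0.27 log2 between their lowest and highest group means. Irf7, the factor that amplifies type I interferon, spanned 0.80, and Usp18, the protease that removes Isg15 and dampens the receptor, 0.99. Of the other effectors, Ifi27 ranged from 23146 to 38151. Ifit3 ranged from 76.6 to 339, Mx1 from 131 to 541 and Ifit2 from 583 to 1684.

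Rats of one group differed more in these genes than in most. The within-group SD was above the all-gene median of 0.24 log2 for 23 of 32 members, and the member median was 0.32. It was 0.63 for Oas1a, 0.63 for Usp18, 0.59 for Bst2, 0.57 for Isg15 and 0.54 for Mx2. In TAA/PB at 10w, for example, Usp18 was 351, 312, 1718, 437 and 639.9, and Irf7 was 572, 527, 1553, 638 and 804; replicate 3 was the highest for both.

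Part of the type I genes deviated together. After subtraction of the mean of its group and array set, Irf7 correlated over the 62 arrays with Usp18 at r = 0.86, Mx1 at 0.83, Oas1a at 0.82, Ifit3 at 0.75, Isg15 at 0.74, Oasl at 0.74, Mx2 at 0.73 and Irf9 at 0.70. The lowest values among the regulators and effectors were 0.18 for Irf1, 0.25 for Dhx58, 0.36 for Bst2, 0.43 for Ifit2 and 0.48 for Eif2ak2. The arrays are 31 rats at 2 times and share the arrays' scaling, so these are descriptions. Among 10903 other genes, 12 members were within the 50 most correlated with Irf7, together with 10 genes of the pathway lists such as Cmpk2, Lgals3bp, Rtp4 and Ifi44l; Usp18 ranked 1, and the gene ranked 2 was Lgals9. The median r over all genes was 0.01.

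The chemokines, class II and part of the class I genes did not share this pattern. Irf7 correlated with Cxcl9 at 0.05, Cxcl10 at 0.06, Cxcl11 at -0.18 and Cd74 at 0.32. Over pairs of effectors the median r was 0.44 (19 of 55 pairs above 0.5), and over pairs of an effector and a chemokine the highest r was 0.24 in 33 pairs. Cd74 correlated with Gbp2 at 0.65 and with Ciita at 0.52, and Cxcl9 with Cxcl10 at 0.48, with Psme2 at 0.49 and, in the opposite direction, with B2m at -0.61. A second B2m probe set, with a mean signal of 8613, correlated with the one used at r = -0.14. The B2m value therefore describes only the probe set used.

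**Figure D4:**
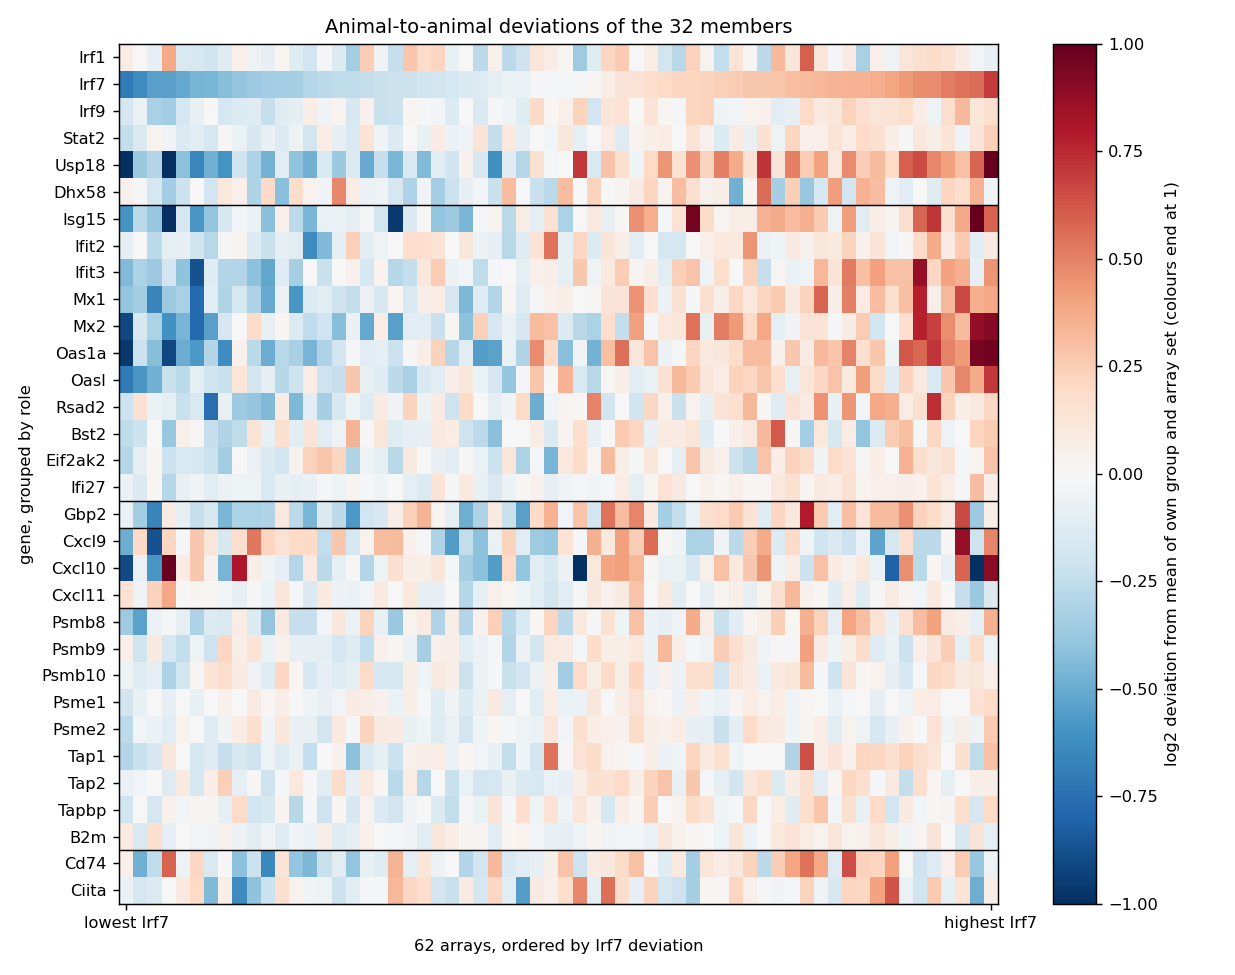
Heat map of the log2 deviation of each of the 32 members (rows, grouped by role) from the mean of its own group and array set, in 62 arrays (columns) ordered by Irf7 from lowest to highest. Usp18, Isg15, Ifit3, Mx1, Mx2, Oas1a and Oasl follow the Irf7 order, and the 3 chemokines do not.

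Promoters of members that moved with Irf7, and of others, are shown as 60-base stretches around their first response element core, since of the 32 measured members 26 had a promoter in the RefSeq table and 16 of the 26 (61.5%) held this core against 9.71% of all promoters, and 7 of 26 (26.9%) held a gamma-activated site against 8.87%. Capitals mark the matches on either strand, in GRCr8, and in Bst2 the gamma-activated site overlaps the core. The whole promoters are chr1:205799974-205800273 (minus strand) for Irf7, chr1:241527076-241527375 (plus strand) for Ifit3, chr12:41330216-41330515 (plus strand) for Oas1a, chr16:18254918-18255217 (minus strand) for Bst2, chr19:50743243-50743542 (minus strand) for Psmb10 and chr20:4967828-4968127 (minus strand) for Tapbp.
Irf7: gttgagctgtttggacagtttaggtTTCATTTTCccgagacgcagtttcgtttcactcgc
Ifit3: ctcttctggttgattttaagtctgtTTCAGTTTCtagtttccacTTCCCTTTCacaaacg
Oas1a: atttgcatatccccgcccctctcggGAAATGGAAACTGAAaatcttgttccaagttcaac
Bst2: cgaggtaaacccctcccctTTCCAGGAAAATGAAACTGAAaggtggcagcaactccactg
Psmb10: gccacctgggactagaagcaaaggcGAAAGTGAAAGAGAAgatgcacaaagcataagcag
Tapbp: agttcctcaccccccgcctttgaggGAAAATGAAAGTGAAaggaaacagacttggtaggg
The first core began at -68 in Irf7, -43 in Ifit3, -41 in Oas1a, -131 in Bst2, -73 in Psmb10 and -26 in Tapbp, and all but Irf7 held 2 or more. Mx1 and Oasl, which also followed Irf7, held neither motif in this window, as did Stat2, Psmb9, Psme1 and Cd74. Usp18, Dhx58, Isg15, Ifit2, Mx2 and Ciita were not matched.

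A rat's deviation from its group at 5w was often seen again at 10w, in tissue taken weeks later. Over 31 rats the correlation of the deviations was r = 0.95 for Bst2, the membrane protein tetherin, 0.79 for Psmb8, 0.79 for Tap2, 0.78 for Usp18, 0.74 for Psmb9 and 0.71 for Oas1a. The member median was 0.47 and that of all genes 0.31, with 26 of 32 members above it. Cxcl10 was the lowest at -0.29. Within array sets the same medians were 0.47 and 0.25, and 22 of 32 members lay above the latter. The value within sets was 0.80 for Bst2, 0.79 for Usp18 and 0.76 for Psmb8, whereas Stat2 went from 0.47 over all rats to -0.10, Psme1 from 0.35 to 0.03, Dhx58 from 0.23 to -0.08 and Irf1 from 0.11 to -0.21. Pairs of samples share the rat, its treatment group and its array set.

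Bst2 and Tap2 differed between the array sets. Bst2 ranged from 3131 to 7548 in set 1 and from 7035 to 13205 in set 2, and the sets did not overlap in 14 of 14 groups. Tap2 ranged from 153 to 346 and from 259 to 535, without overlap in 13 of 14 groups. Set 1 minus set 2 was -0.92 log2 for Bst2 and -0.64 for Tap2, where the median absolute difference over all genes was 0.10. Within sets the correlation between times was 0.08 for Tap2. Replicates 1 and 3 of every group were in set 1 and replicates 2 and 4 in set 2. Replicate 5 was in set 1 in DEN3/PB and in set 2 in TAA/PB and MP/PB. The labels do not say what separates the sets, and its part in these values was not tested.

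**Figure D5:**
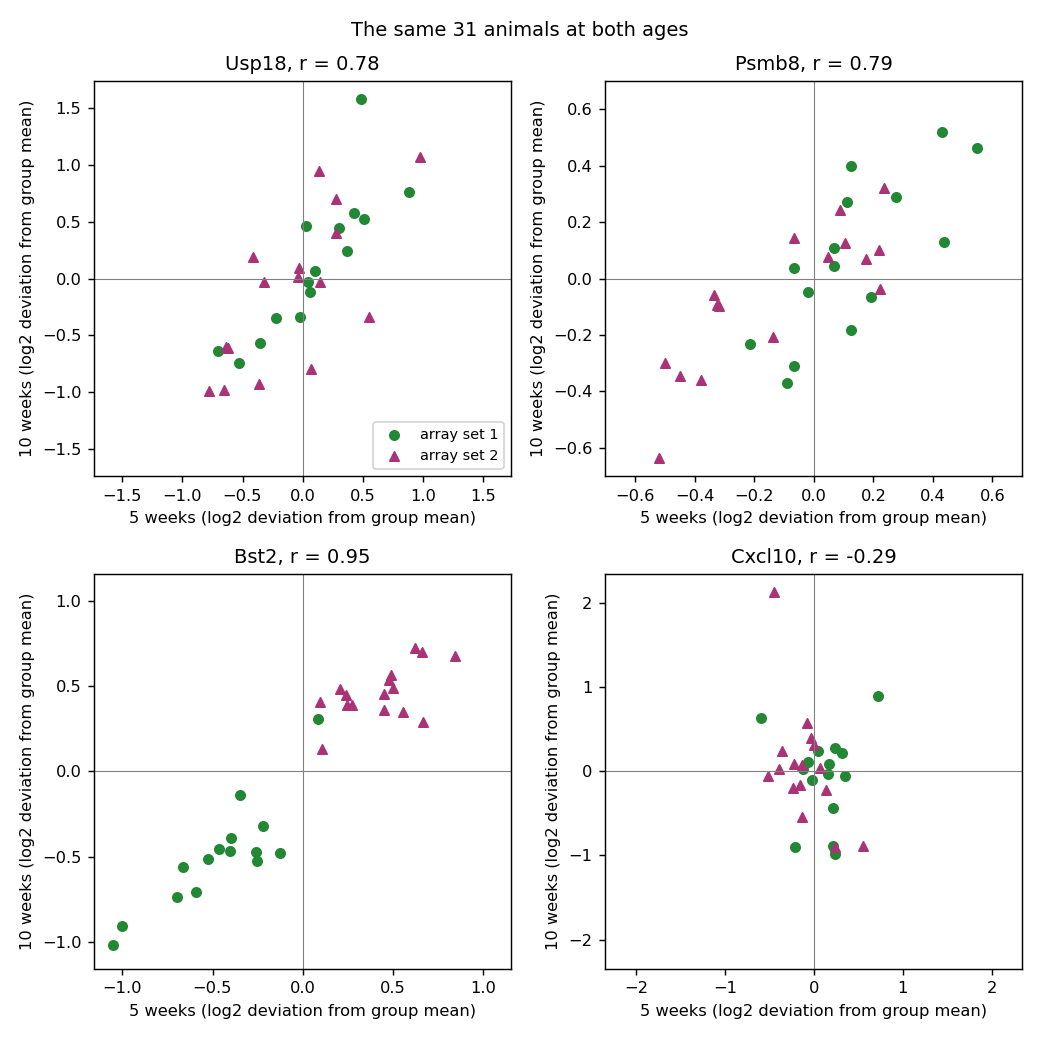
Deviation of each of 31 rats from its group mean (log2) at 5w (x axis) and at 10w (y axis) for Usp18, Psmb8, Bst2 and Cxcl10; circles are array set 1 and triangles set 2. Usp18 and Psmb8 follow the diagonal in both sets, Bst2 separates the sets (r = 0.95), and Cxcl10 shows no such relation (r = -0.29).

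Single genes of the pathway lists were called. Over the 19 comparisons within and between times, without the animal block, each pathway list had at most 1 call; of the tests on all genes 0.680% were called, so nothing particular to the pathway is read from these counts. Of 31 tested further interferon-induced genes, Lgals3bp, a secreted galectin ligand, was called in DEN30/PB at 5w (1.37 ± 0.23, limma adjusted p = 0.00469). Of 15 to 16 signalling and sensor genes, Irf3, the factor that starts interferon transcription, was called lower under PB at 10w (-0.41 ± 0.10, 0.0303). Of 8 to 9 ligands and receptors, the interferon-gamma receptor subunit Ifngr2 was called higher between times in DEN3/PB (0.43 ± 0.11, 0.0227). None of 12 further class I genes and none of 14 further class II genes was called by limma, with 18 of 228 and 18 of 266 tests at an unadjusted p under 0.05, beside 8.60% of all tests. Of 2 tested constitutive proteasome counterparts, Psmb7 was called higher between times in MP/PB (0.25 ± 0.06, 0.0336), the group in which Psmb10 and Psme1 passed with the animal as a block. With that block Lgals3bp and Ifitm3, a membrane antiviral protein, were also called higher between times in MC/PB (0.80 ± 0.20 and 0.51 ± 0.14) and APAP/PB (0.70 ± 0.20 and 0.46 ± 0.14), 2 of the 3 treatments in which Oasl rose. Tyk2, a kinase of the type I receptor, was called lower in MC/PB (-0.43 ± 0.10), and Ifngr2 higher in TAA/PB (0.38 ± 0.09). With the block, 4.84% of all genes were called in MC/PB, 6.34% in APAP/PB and 6.01% in TAA/PB. Nothing particular to the pathway is therefore read from these calls. Without the block, medians of these lists ran from -0.23 to 0.23 over the comparisons. No tested gene of the T cell, natural killer, B and plasma cell, Kupffer cell, neutrophil or dendritic cell lists was called in any of the 19; unadjusted limma p under 0.05 occurred in 2 of 102, 10 of 159, 7 of 51, 5 of 209, 5 of 32 and 11 of 45 tests in that order.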

How the data were processed

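Liver RNA of 62 samples was hybridised to Affymetrix rat arrays. The deposited values are linear intensity signals from MAS5 5.0, per the submitters' processing notes; the scaling target is not given in the sources used here, and the mean after trimming 2% at each end was 499.978 on every array. Of 31099 probe sets 20832 carried 1 symbol in the platform annotation, 436 several, 9774 none, and 57 were controls. Symbols were taken from probe sets with 1 symbol, using the one of highest mean per gene. The number of rats limits the precision.

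The log2 of the signal plus an offset of 25 was fitted with limma 3.58.1 (R 4.3.3, eBayes with trend) over all groups of a time or of both times, on genes with a signal of 100 on at least 4 arrays. The threshold was a Benjamini-Hochberg adjusted p of 0.05, and the fits were tested on simulated data. The 5w and 10w samples come from the same animals per the series' design text; deviations of the 31 pairs correlated at 0.21 to 0.39, all above 0.1, and fits between times were repeated with the animal as a block. Named were members that passed, the 3 of smallest p where fewer than 3 passed, and pathway genes that passed; values per rat were given for members that passed in the fits without the block and the 6 with the widest range of group means. Alternatives covered the offset, filter, normalization, probe set, trend, array sets, groups fitted, and rats left out. The members, lists and array sets were chosen with earlier results of these data known. Promoter sequences are from RefSeq.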

Additional observations from a re-analysis of the deposited data

Results flagged for a closer look

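In 20 of 448 combinations of a member and a group, 1 rat stood apart from the others of its group in signal. Chance gives about 1 in 20 groups, and the difference from the others was not tested further.

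Among the regulators, Irf7 was 1487 in MC/water replicate 1 at 5w, where the other rats had 704 to 726, and Dhx58 was 459 in MP/PB replicate 5 at 5w, where they had 230.2 to 256. Low values were those of Irf1 in APAP/PB replicate 2 at 10w (869.5 against 1173 to 1230.1), Irf9 in MP/PB replicate 3 at 5w (546 against 672 to 715.5) and Stat2 in TAA/PB replicate 5 at 5w (947.5 against 1115 to 1159.7).

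Among the antiviral effectors, Mx2 was 1166.5 in MP/PB replicate 2 at 10w against 388 to 509, Mx1 was 334 in TAA/PB replicate 3 at 5w against 205 to 234, and Ifi27 was 29545 in MC/water replicate 1 at 10w against 23485 to 24283. Mx2 was 298 in MC/PB replicate 2 at 5w against 663 to 740.4, the rat that also had the lowest Isg15. DEN3/PB replicate 2 was low in Ifit3 at 5w (125.5 against 199 to 214) and in Oas1a at 10w (368 against 731 to 960.4).

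TAA/PB replicate 3 at 5w was also high in Gbp2 (478.5 against 182 to 241) and Cxcl10 (344 against 166 to 179.7). Cxcl11 was low in replicate 1 of MC/PB at 10w (1493 against 2044 to 2120.3) and in replicate 1 of APAP/PB at 10w (1437 against 2082 to 2168).

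Of the antigen presentation genes, Tap1 was 1500.1 in DEN3/PB replicate 1 at 5w against 668 to 801. Low values were those of Psmb10 in MC/PB replicate 3 at 10w (1001 against 1123 to 1146), Psme1 in MC/water replicate 4 at 5w (7521 against 8759.5 to 8828.5), Tapbp in MC/water replicate 4 at 10w (598 against 734 to 761) and Ciita in DEN30/PB replicate 3 at 10w (83.8 against 154 to 167).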

How the results depend on the processing

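Over 25 counts of called members, 441 of 471 alternative settings gave a count within 1.5 times the one reported, and 30 did not. Most of the reported counts were 0 and stayed 0, so this total says little about the counts above 0. The largest shift of the median of all genes was 0.019 log2. Under phenobarbital the count at 5w was 0 instead of 1 within array set 1 and with only the 2 groups compared in the fit; at 10w it was 0 within set 1 and 2 within set 2, and 1 to 2 with a rat left out (2, with Oasl, without MC/PB replicate 3). Cxcl9 passed in 18 of 20 settings at 5w and 19 of 20 at 10w, with differences of 1.49 to 1.87 and 1.23 to 1.67 over the settings that kept all rats or 1 array set.

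Between times, DEN3/PB had 0 calls, and 1 with an offset of 100 or a signal minimum of 200, 2 with array set blocked, 3 with quantile normalization and 5 with the replicate block. APAP/PB had 1 call, and 0 with an offset of 100, no filter, quantile normalization, the mean of all probe sets, eBayes without trend or within set 1 or set 2; it had 2 with a signal minimum of 200 or with array set blocked, 3 with the replicate block, and 0 with any 1 rat left out. The replicate block gave 4 calls in MP/PB, 3 in TAA/PB and 1 each in MC/water and MC/PB, and blocking on array set gave 1 in MP/PB; TAA/PB had 0 to 1 with a rat left out (1 without replicate 5). The cause of these moves was not tested. The consensus correlation of the replicate block was 0.32. Within a time a replicate block changed no count. Replicate numbers there name animals and also follow the array sets, so such a block carries the sets as well.

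With the animal as a block and a rat left out, chosen after seeing the data and run at the consensus correlation of all rats, calls numbered 0 in MC/water, 0 to 1 in MC/PB, 2 to 6 in DEN3/PB, 0 to 3 in TAA/PB, 1 to 4 in MP/PB and 1 to 3 in APAP/PB. Signals of Ciita reached 100 on 48 of 62 arrays and those of Ifit3 on 58, so their values lie near the background of the arrays.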

Other observations

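Beside members and genes of the pathway lists, 28 further genes were among the 50 whose deviations followed those of Irf7 most closely over the 62 arrays, within groups and array sets; those named here were chosen after their values were seen. Lgals9, a galectin, had r = 0.83, Ly6e, a membrane protein that acts on virus entry, 0.79, and Parp12, a poly-ADP-ribose polymerase family member, 0.75. Slfn4 of the schlafen family had 0.71, and the RNA helicase Ddx60 had 0.54. The macrophage-expressed membrane protein Ms4a6a had 0.64 and the phagocytosis checkpoint ligand Cd47 had 0.63. These correlations are descriptions of arrays that share rats and scaling.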
